A study of Arabidopsis thaliana with 3 samples.

Results

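The lipid, wax and lipase genes are 34 of the 2762 genes in the deposited comparison of *dss1(I)* with WT Arabidopsis seedlings. They were chosen by words in the gene description, such as lipase, fatty acid, ketoacyl, acyltransferase, desaturase and lipid-transfer, among genes whose domain column was empty. A lipid word stood in 51 descriptions, of which 13 had a filled domain column and 4 held an excluded word such as chloroplast. The members were sorted by the same descriptions into 15 lipid transfer proteins, 16 synthesis genes, 2 lipases and 1 acyl-CoA binding protein, ACBP5. No measured value entered the rule itself, but the rule was set with earlier results of these data known. Every gene of the table had also been called different by the authors with a threshold of 2-fold. A member thus had to differ between the libraries to be present at all.

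Both groups were *Arabidopsis thaliana* seedlings of 14 days that were then kept for 3 days on agar with 10 mM H2O2, so that the WT seedlings had received the peroxide as well. The WT was Columbia-0, and *dss1(I)* was 1 homozygous CRISPR/Cas9 line with a deletion in AtDSS1(I), which the labels call a knockdown. DSS1 is a small acidic protein that binds the proteasome and the recombination protein BRCA2. Poly-A RNA of whole seedlings, collected over several independent experiments, was sequenced as 1 library per genotype, and *dss1(V)* seedlings were not analysed here. A ratio therefore compares 2 libraries and has no replicate check.

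Plant lipids are built from fatty acids made in the plastid, which are lengthened and desaturated at the endoplasmic reticulum and end in membranes, storage oil, signals, or the wax, cutin and suberin that seal the plant surface. Lipid-transfer proteins are small secreted proteins that hold a lipid in a cavity formed by conserved disulphide bridges. They are known from epidermal walls, where they have been linked to cuticle assembly, and from defence and drought responses. Lipases release fatty acids from storage oil or membranes and feed both energy metabolism and signalling.

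The results turn on several pairs of neighbouring gene copies, and their sequences show how closely the members of a pair resemble each other at the start of the coding region. In each pair the capitals mark bases that differ from the partner at the same position, counted from the start codon, in the TAIR10.1 assembly of RefSeq. LTP4 (minus strand, chr5:23925743-23925772) and LTP3 (plus strand, chr5:23929051-23929080) were identical over these 30 bases.
LTP4: atggctttcgctttgaggttcttcacatgc
LTP3: atggctttcgctttgaggttcttcacatgc
AZI1 (chr4:7401827-7401856) and AT4G12490 (chr4:7410349-7410378), both on the minus strand, were identical over this stretch too.
AZI1: atggcttcaaagaactcagcctctcttgct
AT4G12490: atggcttcaaagaactcagcctctcttgct
AT5G46890 (chr5:19036791-19036820) and AT5G46900 (chr5:19040308-19040337), on the minus strand, differed at 2 bases.
AT5G46890: atggcttattctaagGttgcCcttctcctc
AT5G46900: atggcttattctaagAttgcTcttctcctc
AT2G32020 (chr2:13631715-13631744) and AT2G32030 (chr2:13633212-13633241), on the minus strand, differed at 11 bases.
AT2G32020: atggagatggactcaGAAGAAacTaATCCa
AT2G32030: atggagatggactcaACTACTacGaTCAAa
ADS4 (chr1:1936760-1936789) and AT1G06360 (chr1:1940436-1940465), on the minus strand, differed at 20 bases. The bases were compared by position without gaps, and the whole coding regions of this pair, of 903 and 948 bases, were 82.3% identical.
ADS4: atgtGTGATcCCaCTaGaGACGaTGgCTCC
AT1G06360: atgtTCATAcAAaTCaTaACTCaAAgAAAA

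The reads on genes totalled 11033843 in *dss1(I)* and 9394592 in WT, and the table holds 9.49% and 10.7% of them. The mutated gene AtDSS1(I) (AT1G64750) was counted at 233 against 807 reads, mutant first and WT second as in all pairs of values below, which gives a log2 ratio of -2.00 (95% counting interval from -2.23 to -1.80). Its paralog AtDSS1(V) (AT5G45010), which this line does not target, was lower by a similar amount, with 21 against 73 reads (log2 ratio -1.96). Of called genes as long as AtDSS1(I) 6.56% were higher, and 7.46% of those as long as AtDSS1(V), so that both went the way of most. Of root and root hair markers, 8 of 29 were in the table and 7 of these were higher in *dss1(I)*, with a summed level of 31.3 FPKM against 18.8 in WT, whereas 0 of 28 leaf markers were in the table. Seed markers (3 of 14 in the table) and flower markers (2 of 18) were all lower, at 2.67 against 11.4 FPKM and 0.467 against 2.22 FPKM. In whole seedlings fewer cells of a type and less RNA per cell cannot be told apart, and the part of tissue shares in the results that follow was not tested.

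The 34 members took up 0.102% of the reads in *dss1(I)* and 0.157% in WT, and the difference lay mostly in 2 abundant lipid-transfer proteins. A gene counted as measured when its scaled count reached 10 in at least 1 library, which 32 members did. The log2 ratio of the scaled counts, with a pseudocount of 1, was at least 1 in 15 members, beside 48.1% of the 2620 called genes that passed the same filter. It was -1 or lower in 17 members, beside 51.0% of the called genes. A 4-fold difference was reached by 5 members in the higher direction (called genes, 6.30%) and by 5 in the lower direction (12.3%). The median log2 ratio was -1.07 over the members and -1.02 over all called genes. As no measured member lies between -1 and 1, this median falls on whichever side holds more members. Scaling the libraries to a median ratio of 1 over the called genes raises the log2 ratios by 1.02, or by less in genes with few reads through the pseudocount. The split past 2-fold was then 15 higher and 5 lower in place of 15 and 17. No member changed its direction, but with no measured member between -1 and 1 a shift of this size could hardly change one.

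**Figure D1:**
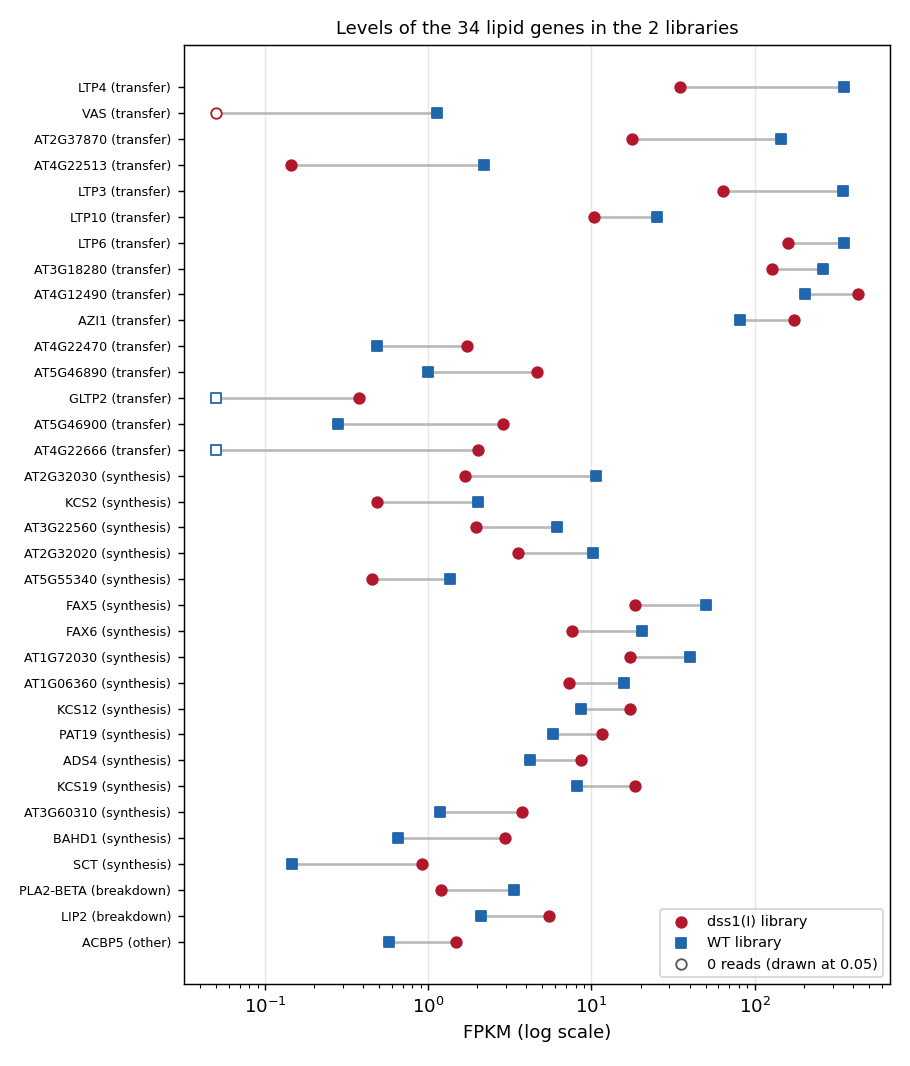
Level of each of the 34 genes (FPKM, fragments scaled by gene length and library total, on a log axis) in the *dss1(I)* library (red circles) and the WT library (blue squares), with open symbols for 0 reads drawn at 0.05. Most of the highest levels belong to transfer proteins, with LTP4 at 34.9 in *dss1(I)* and 351 in WT, while the synthesis genes lie at 50.4 FPKM or below.

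Among the transfer proteins the 4 non-specific lipid-transfer proteins (LTP3, LTP4, LTP6 and LTP10) were all lower in *dss1(I)*, and together they went from 1077 FPKM in WT to 270 FPKM. Of called genes as long as these 7.02% were higher, so that 4 of 4 lower is near the background of their length. LTP4 had 320 reads against 2734, or 34.9 and 351 FPKM, a 9.93-fold lower scaled count (log2 ratio -3.31, interval from -3.48 to -3.14). LTP3, which has been linked to drought and freezing tolerance, had 546 and 2509 reads, or 64.3 and 347 FPKM, a 5.34-fold lower scaled count (log2 ratio -2.42, interval from -2.55 to -2.28). In WT both genes stood at nearly the same level as LTP6, and in *dss1(I)* LTP6 was the highest of the family. LTP6 had 1285 reads against 2413 (160 and 354 FPKM, log2 ratio -1.13, interval from -1.23 to -1.03). LTP10 had 79 against 164 (10.3 and 25.2 FPKM, log2 ratio -1.26, interval from -1.68 to -0.88). Scaled to a median ratio of 1, LTP6 and LTP10 came to -0.10 and -0.24, so that their difference from WT was then small, whereas LTP4 and LTP3 stayed at -2.28 and -1.39. The intervals cover counting error only, as there was 1 library per genotype. PCR copies were not told apart from separate molecules, so that even this error can be larger than shown.

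The EARLI1-like proteins, which belong to the same fold but carry a proline-rich stretch, went the other way. AT4G12490, the most abundant member in *dss1(I)*, had 3747 reads against 1493 in WT, or 432 and 202 FPKM (log2 ratio 1.11, interval from 1.02 to 1.2). AZI1 (AT4G12470), which is needed for the systemic immunity primed by azelaic acid, had 1660 and 661 reads, or 174 and 81.3 FPKM (log2 ratio 1.11, interval from 0.98 to 1.24). The 2 genes thus differed from WT by the same factor, 2.16, and their sum was 606 FPKM in *dss1(I)* and 284 in WT. Of called genes of their length 8.32% were higher. AT4G12490 overlaps AT4G12495 on the opposite strand over 282 bp, and the sources used here do not say whether the counting used strand.

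The 7 other members with the bifunctional inhibitor, lipid-transfer and 2S albumin domain were split into 4 higher and 3 lower. Of called genes as long 7.83% were higher, or 0.548 of 7, but the 4 passed the filter only through *dss1(I)*, where they are high. The lower ones included the abundant AT2G37870 (plus strand, chromosome 2, 15859204 to 15859942), with 125 reads against 870, or 17.6 and 144 FPKM (log2 ratio -3.01, interval from -3.30 to -2.74). AT3G18280 was lower by just over the threshold, with 994 and 1740 reads, or 128 and 263 FPKM (log2 ratio -1.02, interval from -1.14 to -0.91), and came to -0.00041 under scaling to a median ratio of 1. AT4G22513 had 1 read against 13 (log2 ratio -2.97, interval from -9.33 to -1.18) and lies wholly within AT4G22510 on the opposite strand. The levels of these lower genes in WT thus ran from 263 FPKM down to 2.19 FPKM.

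The higher genes of this group were all rare. AT5G46900 had 24 reads against 2, or 2.88 and 0.282 FPKM (log2 ratio 2.88, interval from 1.36 to 6.49). AT5G46890 had 33 and 6 reads, or 4.65 and 0.993 FPKM (log2 ratio 2.08, interval from 0.97 to 3.79). These 2 genes share 97.4% of their coding bases and a stretch of 202 identical transcript bases, longer than the 150-base reads, so that reads can have been split between them and each count is uncertain. AT4G22666 had 18 reads against 0, or 5.16-fold higher with the WT library set to a floor of 3 counts. Its counting interval began at a log2 ratio of 1.92. AT4G22470 had 25 and 6 reads (1.72 and 0.485 FPKM, log2 ratio 1.69, interval from 0.52 to 3.42) and lies wholly within AT4G22467 on the opposite strand.

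Both transfer members outside the filter had no reads in 1 library. VAS, a lipid-transfer-like protein of vascular tissue, had 0 reads against 8 in WT and shares 28 bp with its neighbour AT5G13890 on the same strand. With *dss1(I)* at the floor it was 3.10-fold lower, and its counting interval ended at a log2 ratio of -0.99. GLTP2, a glycolipid transfer protein, had 6 reads against 0 in WT. With WT at the floor it was 1.72-fold higher, and its counting interval began at a log2 ratio of 0.018. The transfer class as a whole went from 1773 FPKM in WT to 1034 FPKM in *dss1(I)*, with LTP3 and LTP4 together falling short of WT by most of that (99.3 against 698 FPKM). Without these 2 genes, a choice made after the values were seen, the class stood at 934 FPKM in *dss1(I)* and 1075 in WT, with 6 members higher and 5 lower, and its median log2 ratio was 1.11 in place of -1.02. This is not particular to LTP3 and LTP4. The measured class held 6 members higher and 7 lower, so that leaving out any 2 of the lower ones puts the median on the higher side. Under scaling to a median ratio of 1 the median of the whole class stood at -0.00041, the value of AT3G18280. Setting AT4G22666 at its floor value changes none of these medians.

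**Figure D2:**
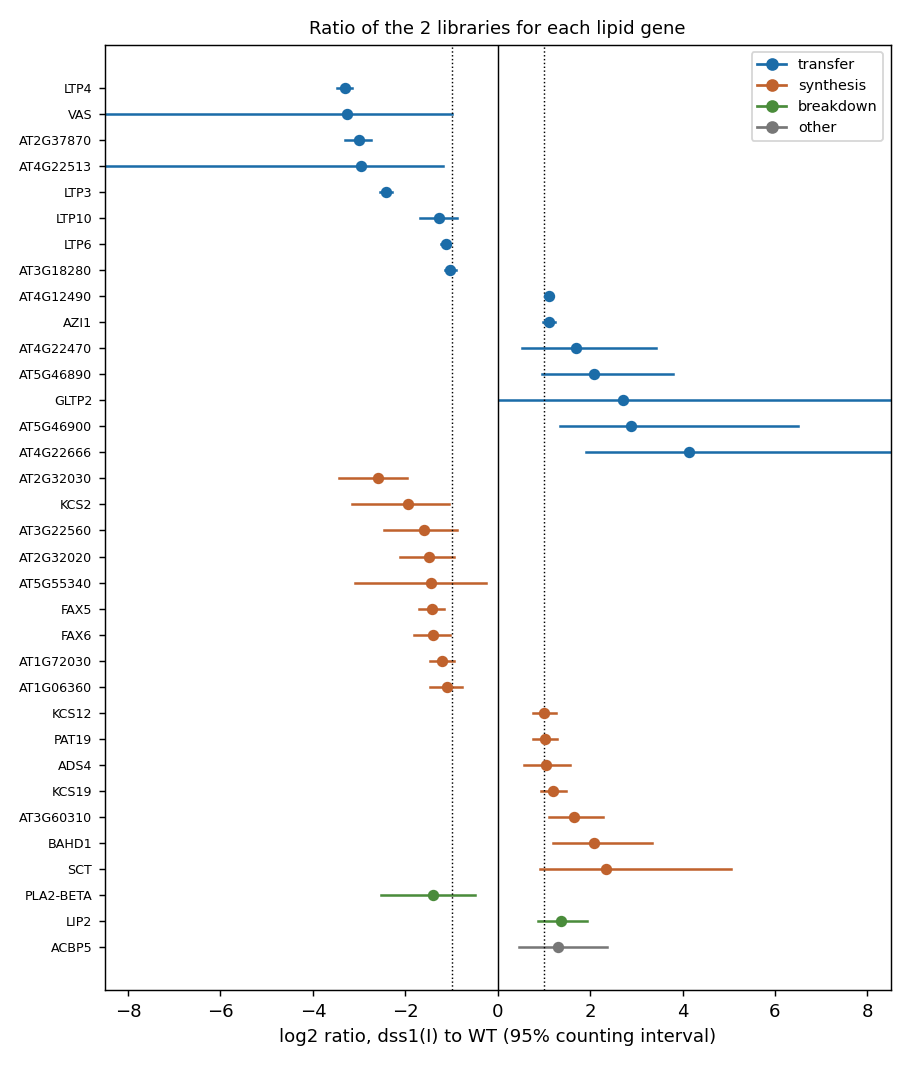
Log2 ratio of *dss1(I)* to WT for each gene (points, scaled counts with a pseudocount of 1) with its 95% counting interval (lines, cut at the edge of the axis where a library has 0 or 1 reads), coloured by class, and dotted lines at 2-fold. The abundant genes such as LTP4 (-3.31) and AT4G12490 (1.11) have short intervals, and the rare ones such as AT4G22513, with 1 and 13 reads, have wide ones.

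The synthesis class of 16 members held 7 higher and 9 lower, and its summed level was 122 FPKM in *dss1(I)* and 186 in WT. It joins genes of different work, since the word acyltransferase also takes in enzymes that act on proteins, amines or phenolic compounds. The fatty acid elongation enzymes were split. KCS12 and KCS19, 3-ketoacyl-CoA synthases, which join a malonyl unit to a growing acyl chain, were higher with 465 against 199 reads (17.2 and 8.63 FPKM, log2 ratio 1.00) and 428 against 160 reads (18.5 and 8.13 FPKM, log2 ratio 1.2, interval from 0.94 to 1.47). KCS2, which lengthens chains for root suberin, was lower with 11 against 39 reads (0.488 and 2.03 FPKM, log2 ratio -1.94, interval from -3.16 to -1.05), and most of its span is shared with the long non-coding RNA gene AT1G04247 on the opposite strand, which had 6 reads against 0.

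The fatty acid desaturases also went both ways, although they are neighbours. ADS4, a delta-9 desaturase-like enzyme, had 118 reads against 49, or 8.64 and 4.21 FPKM (log2 ratio 1.04, interval from 0.56 to 1.56). AT1G06360, which lies 2020 bp away, had 103 and 192 reads, or 7.24 and 15.8 FPKM (log2 ratio -1.11, interval from -1.48 to -0.76). The sum of the pair therefore differed less between the libraries than either gene did. Their coding regions are 82.3% identical, but the longest identical stretch of 56 bases is shorter than a read, and the printed starts differ at 20 of 30 bases.

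Of the other lipid enzymes, AT3G60310, of the acyl-CoA synthetases that activate fatty acids, was higher with 119 against 32 reads (3.73 and 1.18 FPKM, log2 ratio 1.65, interval from 1.1 to 2.29). AT5G55340, a probable wax ester synthase by its description as a long-chain-alcohol acyltransferase, was lower with 7 against 18 reads (0.453 and 1.37 FPKM, log2 ratio -1.45, interval from -3.08 to -0.25). The fatty acid export proteins, named after a relative that moves fatty acids out of the plastid, were both lower by a similar factor, at a length where 7.28% of called genes were higher. FAX5 had 167 reads against 388 (18.5 and 50.4 FPKM, log2 ratio -1.43, interval from -1.70 to -1.17) and overlaps AT1G50745 on the opposite strand over 170 bp. FAX6, on another chromosome and 83.3% identical in its coding bases, had 81 against 186 (7.56 and 20.4 FPKM, log2 ratio -1.40, interval from -1.81 to -1.03). Scaled to a median ratio of 1 they came to -0.41 and -0.39.

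In the synthesis class 7 members act outside lipid synthesis. The 4 N-acyltransferases of the NAT superfamily, a family that acetylates proteins and amines, were all lower. Of called genes as long 7.60% were higher, so that this count too is near the background of their length. AT2G32030 had 20 reads against 109, or 1.67 and 10.7 FPKM (log2 ratio -2.60, interval from -3.43 to -1.97). Its neighbour AT2G32020 had 37 and 91 reads, or 3.53 and 10.2 FPKM (log2 ratio -1.49, interval from -2.11 to -0.95), so that the 2 copies stood at nearly equal levels in WT and apart in *dss1(I)*. AT3G22560 (20 and 54 reads, log2 ratio -1.60) and AT1G72030 (178 and 352 reads, 17.3 and 40.2 FPKM, log2 ratio -1.20) were lower as well. They overlap AT3G22565 and AT1G72040 on the opposite strand, over 134 and 39 bp.

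The BAHD acyltransferases, which attach acyl groups to alcohols and amines in specialised metabolism, were both higher and both rare. SCT, which makes coumaroyl spermidine in root tips, had 22 reads against 3 (0.912 and 0.146 FPKM, log2 ratio 2.33, interval from 0.92 to 5.04). BAHD1, whose gene lies in the thalianol cluster that is active in roots, had 53 against 10 (2.95 and 0.653 FPKM, log2 ratio 2.09, interval from 1.2 to 3.33). Both are known from roots, and 45.9% of called genes as long were higher. Of the root markers above 7 of 8 were higher in the same library. KCS2, at -1.94, and MGD3, a galactolipid synthase gene known from phosphate-starved roots, at -2.86, were lower. The part of root tissue in any of these differences was not tested. PAT19, which attaches palmitate to proteins, was higher with 402 against 170 reads (11.7 and 5.80 FPKM, log2 ratio 1.02). Without these 7 genes, a choice made after the values were seen, the synthesis class held 4 higher and 5 lower, and its sum was 82.3 FPKM in *dss1(I)* and 112 in WT.

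Of the lipases, LIP2, described as a triacylglycerol lipase and named in RefSeq as a lipase induced by the aphid Myzus persicae, was higher with 125 against 41 reads (5.48 and 2.11 FPKM, log2 ratio 1.37, interval from 0.87 to 1.94). PLA2-BETA, a small secreted phospholipase A2 that releases fatty acids from phospholipids, was lower with 13 against 31 reads (1.19 and 3.33 FPKM, log2 ratio -1.40, interval from -2.53 to -0.50). The 2 lipases thus differed in direction. ACBP5, a cytosolic protein that binds acyl-CoA esters and carries kelch repeats, was higher with 42 against 14 reads (1.48 and 0.578 FPKM, log2 ratio 1.31, interval from 0.47 to 2.35). Its gene overlaps AT5G27640 on the opposite strand over 394 bp.

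The class of 2 lipases is small because the empty domain column leaves out most lipases. The 13 genes with a lipid word and a filled domain column held 7 higher and 4 lower among the 11 that passed the filter, with a median log2 ratio of 1.07, beside 60.7% higher among called genes as long, or 6.68 of 11. Of the 7 higher genes 2 encode PHD-finger proteins, without which 5 were higher and 4 lower. They include GPAT1, a glycerol-3-phosphate acyltransferase (24 and 5 reads, log2 ratio 1.86), and its relatives GPAT2 (22 and 53 reads, -1.44) and ATGPAT3 (269 and 650 reads, -1.49). They also include GLL23, a GDSL lipase-like protein (1423 and 584 reads, 1.07), PAD4, the lipase-like partner of EDS1 in immunity (84 and 187 reads, -1.36), and the phospholipase D gene PLDGAMMA2 (718 and 296 reads, 1.06). The named genes thus went in both directions.

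The direction of a called gene followed its length in this table, and the members were compared with that background. Over all lengths, 48.5% of the 2620 called genes were higher by any amount. Of those of at most 1000 bp (522 genes) 10.2% were higher in *dss1(I)*, and of those over 2000 bp (1147 genes) 86.0%. The members followed the same order, with 5 of 18 higher at 1000 bp or less, 3 of 6 between, and 7 of 8 above 2000 bp. The members higher in *dss1(I)* had a median length of 1630 bp and the lower ones of 928 bp.

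For each member the called genes outside the list with a length within 10% of its own were taken as its background. Over the 32 measured members these genes were higher in 24.7% on average, which corresponds to 7.92 members, and 15 were higher. In the synthesis class the background was 34.7%, or 5.55 of 16 genes, and 7 were higher. The transfer proteins had a background of 7.66%, or about 0.996 of 13 genes, and 6 were higher. Of these 6, only AZI1 and AT4G12490 reached a scaled count of 50, and with that minimum the transfer class held 2 higher genes of 8 measured, beside a background of 3.18%. AT4G22666, AT5G46900, AT5G46890 and AT4G22470 passed the filter of 10 only through *dss1(I)*, where they are high, as did SCT in the synthesis class. AT4G22513 and AT5G55340 passed it only through WT, where they are high. No excess is therefore read from these counts. These shares are a description of 2 libraries, in which neighbouring gene copies are not independent of each other, and they carry no test.

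**Figure D3:**
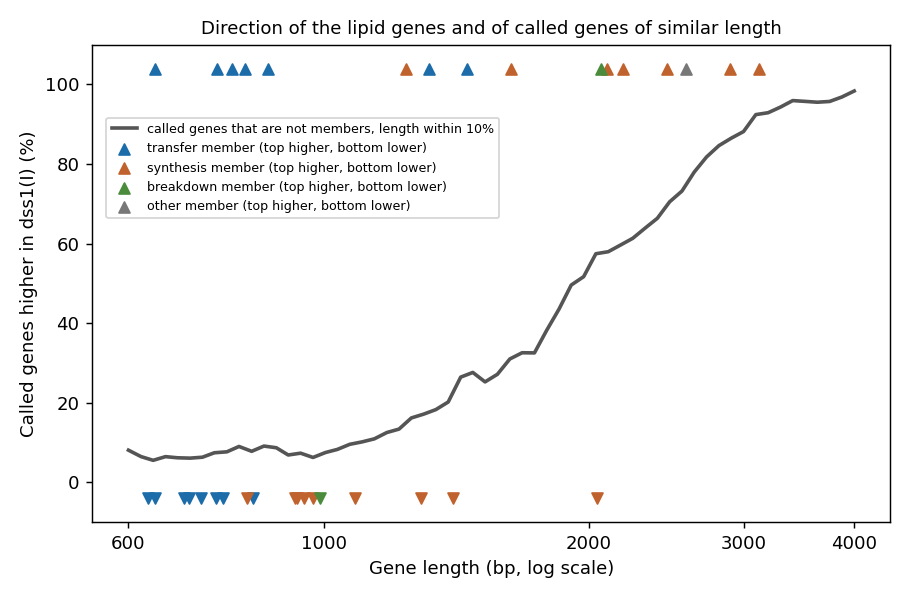
Share of called genes outside the list that were higher in *dss1(I)* (grey line, percent, over genes within 10% of the length) against gene length (bp, log axis), with each member as a triangle at the top where it was higher and at the bottom where it was lower. VAS and GLTP2, which missed the filter, are drawn too. Of the 18 measured members of at most 1000 bp, 5 stand at the top, all of them transfer proteins, where the line runs near 10% or below. Among them AT5G46890, AT5G46900 and AT4G22666 passed the filter only through *dss1(I)*, where they are high.

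Several members are neighbours, and 5 pairs lie within 10 kb of each other. In 4 of the 5 pairs (80.0%) both genes went in the same direction, beside 413 of 689 neighbouring pairs (59.9%) over all called genes. Those 689 pairs were not matched for length. For the genes of the 5 pairs, between 5.43% (AT5G46890) and 17.6% (AT1G06360) of called genes as long were higher. Called genes of such lengths were mostly lower, which is the direction of LTP4 and LTP3 and of AT2G32020 and AT2G32030. AZI1 with AT4G12490, and AT5G46890 with AT5G46900, were higher instead. Reads can have been split between AT5G46890 and AT5G46900, and with 5 pairs no excess is read from the 80.0%. LTP4 and LTP3 lie on opposite strands 2996 bp apart and were 84.5% identical in their coding bases, and AZI1 and AT4G12490 lie 7669 bp apart, with 2 other protein-coding genes between them, and were 76.4% identical. AT2G32020 and AT2G32030 lie 538 bp apart and were also 76.4% identical. In these pairs the longest identical stretch was between 22 and 44 bases, below the read length.

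**Figure D4:**
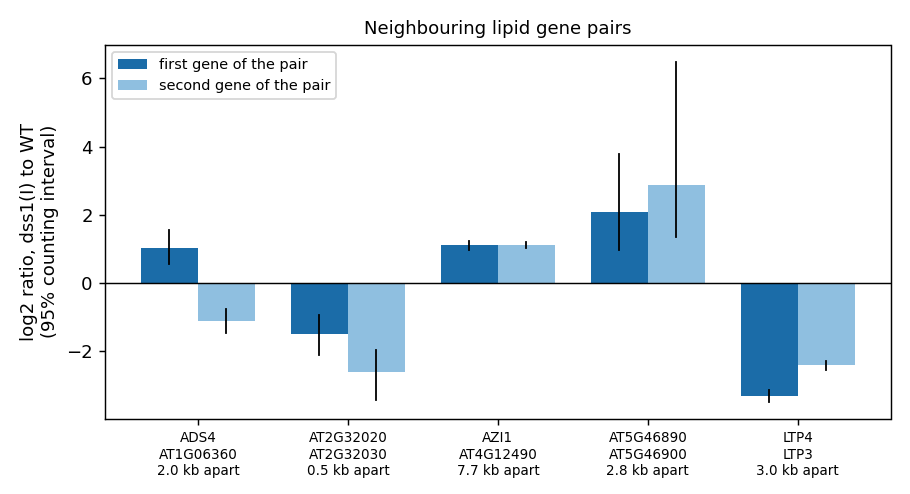
Log2 ratio of *dss1(I)* to WT (bars, with lines for the 95% counting interval) for the 5 pairs of neighbouring members, each with the distance between its genes. In ADS4 and AT1G06360 the bars point in opposite directions (1.04 and -1.11), and in the other pairs they point the same way.

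The 250 bases before each gene start were searched on both strands for short motifs known from stress-responsive genes, since some groups of members stood on the same side of WT. The core of the abscisic acid response element, ACGTG, was found in 6 of the 15 higher members and 4 of the 17 lower members, beside 22.9% of the 27443 protein-coding genes searched and 22.6% of the higher and 29.6% of the lower called genes. It was in the window of 0 of the 4 non-specific lipid-transfer proteins. The G-box CACGTG, which contains ACGTG, was found in 2 lower members and 0 higher ones, beside 6.49% of all genes, 10.4% of the lower and 6.25% of the higher called genes. The W-box core TTGAC was found in 8 higher and 10 lower members, beside 44.9% of all genes and 41.9% of the higher and 51.6% of the lower called genes. LTP3, LTP4 and LTP10 were among the lower members that hold it. The windows of AT2G37870 and AZI1, the most abundant lower and higher members with the abscisic acid core, are shown with the core in capitals as it reads from the other strand (CACGT).
AT2G37870: tataaccgtaCACGTcaccaaaaca
AZI1: tatatgaatgCACGTatatataaag
The first lies at chr2:15859147-15859171 on the plus strand, 47 bases before the gene start, and the second at chr4:7402137-7402161 on the minus strand, 200 bases before it. A match is a description of these letters and not of a bound site.

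Other lipid genes were looked up from lists fixed by symbol, of which 15 were in the table, 6 of them higher and 9 lower. The surface lipid lists had 1 of 24 cuticular wax genes, 0 of 15 cutin genes and 0 of 14 suberin genes. A further 5 cutin and 7 suberin symbols matched no locus and are not among these. Beside the counts from each list, the table holds 2762 genes, and 27443 protein-coding genes entered the motif search. The lists are too short for 0 or 1 to be read as a depletion. The wax gene was the member KCS2, which the lists place under wax only although it also acts in root suberin. Peroxisomal beta-oxidation had 1 of 23, the thiolase KAT5, which was lower with 740 against 1478 reads (log2 ratio -1.21). At its length 70.0% of called genes were higher. Absence from the table means only that the authors did not call a gene.

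Storage lipid genes had 4 of 20 in the table. RD20, a caleosin of oil bodies that responds to drought, was lower with 397 against 1245 reads (34.4 and 127 FPKM, log2 ratio -1.86), and so was the oleosin OLEO4 (37 and 90 reads, -1.47). The lipases SDP1, which starts the breakdown of seed oil, and PLIP2, a plastid lipase, were higher with 1038 against 402 reads (1.15) and 1309 against 556 reads (1.02). All 4 went the way of most called genes of their length, of which 7.75% were higher for RD20, 20.3% for OLEO4, 95.5% for SDP1 and 85.4% for PLIP2.

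Phospholipid signalling had 4 of 36 genes, the lipid phosphate phosphatase LPP1 (-1.42) and PAD4 lower, and PLDGAMMA2 and the phospholipase C gene PLC7 (12 and 1 reads, 2.54) higher. The sphingolipid list had 1 of 20, the inositol phosphorylceramide synthase IPCS1, which was lower with 99 against 171 reads. Plastid lipid genes had 3 of 29. MGD3 was lower with 36 against 231 reads (1.69 and 12.8 FPKM, log2 ratio -2.86). PES1, which esterifies phytol, was lower too (-1.16), at a length where 82.0% of called genes were higher. ACC2, a plastid-type acetyl-CoA carboxylase of 7852 bp, was higher with 466 against 65 reads (2.61), at a length where 100% of the called genes were higher. Of the regulators 1 of 22 was present, WRI4, which drives fatty acid synthesis for wax, with 319 against 120 reads (1.19). At its length 27.1% of called genes were higher.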

How the data were processed

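Total RNA of *dss1(I)* and WT seedlings was enriched for poly-A RNA and sequenced as 150-base paired reads, 1 library per genotype. After filtering in fastp, the authors used HISAT2 for mapping to TAIR10 and featureCounts for counts per gene, and whether strand was used is not given in the sources used here. The deposited raw counts are whole numbers without normalization. The authors' scaled counts are a signal for which edgeR brought both libraries to one size. The deposited FPKM divide each count by gene length and library total. The deposited log2 fold changes and p-values are the authors' own comparison and were not used. The table is limited to called genes.

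Library totals were recovered from count, FPKM and length. Log2 ratios of scaled counts took a pseudocount of 1, and genes were counted where either library reached a scaled count of 10. With 1 library per genotype no p-value was computed. The exact Clopper-Pearson 95% interval of the ratio covers counting error only. A library at 0 was set to a floor of 3 counts for a fold, which allows for no error in the other library. All 34 members matched the coordinates of TAIR10.1 (RefSeq), from which sequences and overlaps were read.

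Named are the 5 largest rises, the 5 largest falls and the 3 highest mean FPKM in each class, and every member with 0 reads in 1 library (30 members in all). The other 4 members and the genes with a filled domain column were named after their values were seen. Members and lists were chosen with earlier results of these data known. From the lists, 2 symbols shared with unrelated genes were left out. The alternatives were pseudocounts of 0.1 and 5, other scalings, filters, thresholds and length windows, and 4 changes of membership added after seeing the data. The work was done in Python 3.11.15 (biopython 1.88, matplotlib 3.10.9, scipy 1.17.1, pandas 2.3.3, numpy 2.4.6).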

Additional observations from a re-analysis of the deposited data

How the results depend on the processing

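No paired analysis was possible because there was a single library of *dss1(I)* and a single library of WT. The direction of each of the 34 members was the same under pseudocounts of 0.1 and 5, raw counts by library totals and scaling to a median ratio of 1 over the table, and so were the counts of higher members under that scaling. The kept directions were nearly fixed in advance. A pseudocount cannot change a direction, and no measured member lay within 2-fold of WT, so that the scaling could hardly change one. Over the same measured members it left 5, of which 4 in the transfer class and 1 in the synthesis class, at least 2-fold lower, with medians of -0.045 over the members, -0.00041 over the transfer class and -0.13 over the synthesis class, and -0.98 for AtDSS1(I). This scaling shifts the ratios by 1.02, less in genes with few reads. At 4-fold, 5 members were higher and 5 lower, with 3 and 4 in the transfer class and 2 and 1 in the synthesis class. With a scaled count of at least 50, 8 members and 2 transfer members were higher, as fewer genes were tested. Among the changes made after seeing the data, adding the 13 genes with a filled domain column gave a median of 1.00, leaving out members that overlap another gene gave medians of -0.010 over the members and 1.01 over the synthesis class with 5 of that class lower, leaving out LTP3 and LTP4 gave -0.010 over the members and 1.11 over the transfer class, and leaving out the 7 members that act outside lipids left 4 higher and 5 lower in that class. Genes with under 10 reads in 1 library, such as AT5G46900, SCT and AT4G22513, are limited by depth.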
